A study of Homo sapiens with 8 samples.

Results

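The antiviral interferon-stimulated effectors described here are 50 named genes whose products act on viruses, or on the cell's handling of them, after an interferon signal. They were taken by symbol from the deposited count and FPKM tables, leaving out the OAS, IFIT and GBP families, the nucleic acid sensors and the STAT and IRF factors. All 50 were among the 25369 genes of the tables, and 48 had at least 10 counts in 2 or more libraries, as did 14708 genes in all. RNA-seq was measured in wild type LX-2 cells, an immortalized human hepatic stellate cell line, grown on polyacrylamide hydrogels of 2 kPa (soft matrix) or 40 kPa (stiff matrix) for 2 or 4 days. The design asks how the stiffness of the matrix, at that of normal or of cirrhotic liver, bears on expression. Each of the 4 conditions had 2 libraries, 8 in all, which the study describes as independent experiments, while the labels give only a replicate number; if the cultures were not separate, the p-values measure technical spread alone. The labels name no added interferon or virus, all cells were of the same line, and totals lay between 19955975 and 27263935 counts per library.

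Type I and type III interferons act through their receptors and the JAK kinases on the transcription factor complex ISGF3, which binds the interferon-stimulated response element (ISRE) before the genes it switches on. The products act at different steps: IFITM proteins at viral entry, MX GTPases and RSAD2 (viperin) at replication, the ubiquitin-like ISG15 by conjugation to other proteins, and BST2 (tetherin) at the release of particles. In the liver these genes are best known from hepatitis virus infection, and many keep a low level of expression without infection.

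Most effectors had less RNA on the stiff than on the soft matrix: the log2 fold change was below 0 in 44 of the 48 tested at 2 days (48.2% of all genes), none of which passed an adjusted p of 0.05, and in 45 at 4 days (46.7% of all genes), of which 5 passed (0.211% of all genes). IFI44, DDX60, EPSTI1 and APOL3 were downregulated on the stiff matrix at 4 days, between 3.53-fold (EPSTI1) and 5.61-fold (IFI44), and no effector was upregulated. IFI44L also passed, but it reached the count minimum of the test only in the soft-matrix libraries of 4 days, so that it had to be higher there, and its call is given as a description. RSAD2, which did not pass, reached the minimum in the same way, and both are among the 45. Over time, 16 effectors rose on the soft matrix (33.3% of the 48, against 14% of all genes) and none fell (13.1% of all genes), while on the stiff matrix 6 rose (12.5%, against 13.9% of all genes), a share near that of all genes, and PML alone fell (13.5% of all genes). The abundant IFITM2 and IFITM3, and ADAR, EIF2AK2, TRIM5 and USP18, had log2 fold changes between -0.21 and 0.12 in both stiffness comparisons, none of which passed the test. All values come from bulk RNA, in which fewer expressing cells and less RNA per cell cannot be told apart.

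**Figure D1:**
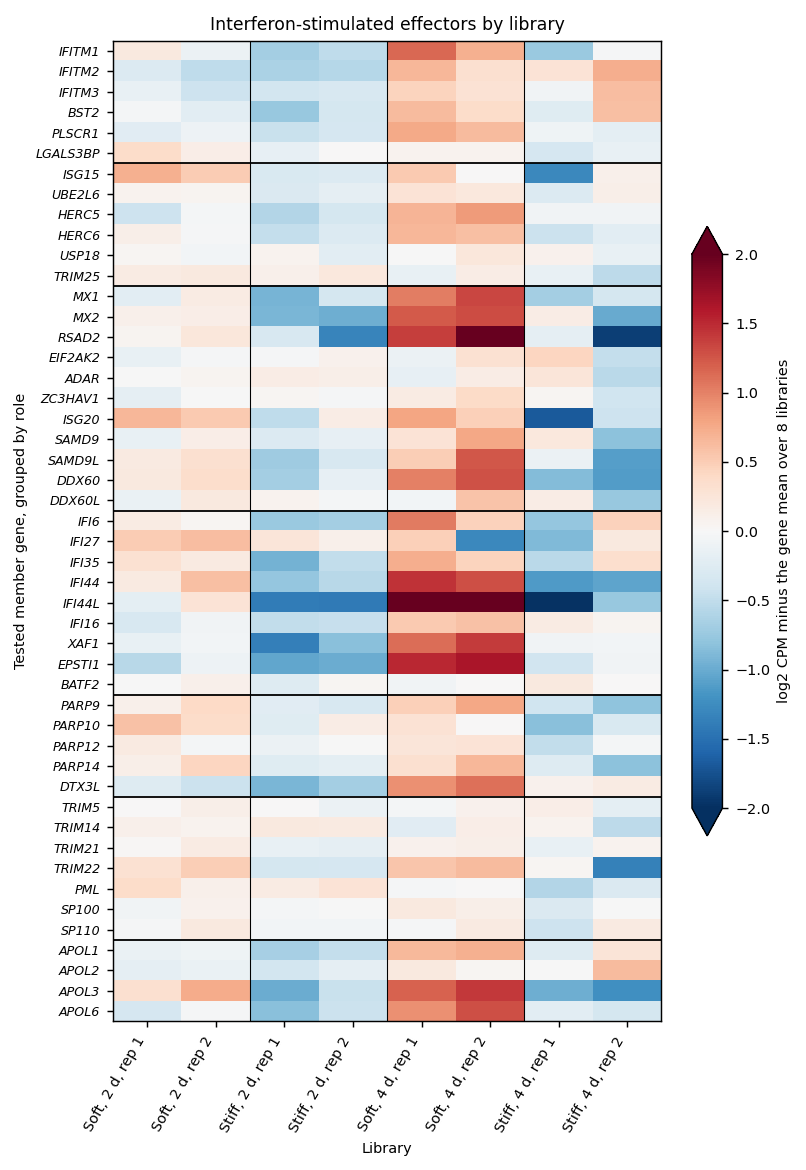
Expression of the 48 tested effectors (vertical axis, grouped by role between horizontal lines) in each of the 8 libraries (horizontal axis). Colour is the log2 CPM minus the gene's mean over the 8 libraries; the soft-matrix libraries at 4 days are the reddest columns, with median deviations of 0.51 and 0.48, and the stiff-matrix libraries the bluest, between -0.36 and -0.19.

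The start regions of 6 effectors are shown because they carry the interferon response element that many of the genes below share. The ISRE was searched as GAAANNGAAA on both strands in the 300 bases from 250 before to 50 after a single start per gene. Starts came from RefSeq's promoter table (GRCh38.p14), which held 40 of the 50 effectors. Of these 40, 25 (62.5%) had a match, against 3.65% of all 27305 promoters in the table. Capitals mark the matches that lie wholly before the start, and each sequence is 5′ to 3′ on the gene's strand. The IFI44 and IFITM1 sequences end at the base before the start. The others stop further upstream, so distances to the start cannot be counted from their printed ends.
IFI44 (chr1:78649741-78649788, plus strand): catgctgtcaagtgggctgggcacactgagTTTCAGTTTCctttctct
IFI44L (chr1:78620254-78620414, plus strand): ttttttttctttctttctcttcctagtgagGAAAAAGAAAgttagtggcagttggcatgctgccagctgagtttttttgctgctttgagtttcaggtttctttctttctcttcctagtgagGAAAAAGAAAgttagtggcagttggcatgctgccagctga
DDX60 (chr4:168318766-168318870, minus strand): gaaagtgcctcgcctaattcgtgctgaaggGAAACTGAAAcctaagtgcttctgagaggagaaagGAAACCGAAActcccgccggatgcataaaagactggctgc
EPSTI1 (chr13:42992252-42992321, minus strand): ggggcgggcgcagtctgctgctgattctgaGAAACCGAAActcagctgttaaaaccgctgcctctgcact
IFITM1 (chr11:313970-314039, plus strand): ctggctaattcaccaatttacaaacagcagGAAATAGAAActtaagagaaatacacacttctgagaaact
ISG15 (chr1:1013354-1013429, plus strand): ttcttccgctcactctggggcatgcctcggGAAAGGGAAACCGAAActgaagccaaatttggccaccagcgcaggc
The match nearest to the start began 18 bases before it in IFI44, where it reads on the opposite strand, and 50 bases before it in EPSTI1. In DDX60 and IFI44L it began 53 and 73 bases before the start, and both had a further match upstream. The IFI44L window holds the same stretch around the match 2 times. In ISG15 the matches overlapped each other, the nearer one 107 bases before the start. The IFITM1 match shown began 40 bases before the start; a second one, not in capitals, runs past the start, and an ISRE match of this gene overlaps a match to the gamma-activated sequence described below. IFI44, DDX60 and EPSTI1 were downregulated at 4 days on the stiff matrix, and IFITM1 and ISG15 did not pass the test. IFI44L passed, but it reached the count minimum only in the soft libraries of 4 days, so its call is a description.

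A gamma-activated sequence, searched as TTCNNNGAA, was in 9 of the 40 promoters (22.5%) against 7.88% of all, and an AP-1 site, searched as TGANTCA, in 5 (12.5%) against 7.76%. In the tested effectors with an ISRE match, 24 in number, the log2 fold change at 4 days had a median of -0.78 and ran from -5.22 to -0.04. In the 14 with a promoter in the table and no match, the median was -0.44 and the range -3.16 to 0.14. The lower ends of both ranges belong to IFI44L and RSAD2, which reached the count minimum only in the soft libraries of 4 days. The ranges overlap, and the split was not tested. PARP9 had no match in its own window and a log2 fold change of -1.22, while DTX3L, which starts nearby on the opposite strand, had 1 match. RSAD2 had no match in its window and a value of -3.16, under the same limit of counts. Only 1 start per gene was searched, so a match at another start of a gene would be missed. TRIM5 and EIF2AK2 had a match and values of -0.04 and -0.06.

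Levels differed widely between effectors. On the FPKM scale (fragments scaled by depth and by transcript length), IFITM3 was the highest, with a mean of 213 over the 8 libraries (range 155 to 312). It was followed by LGALS3BP at 87.1, ISG15 at 66.1, IFITM2 at 49.9 and BST2 at 46.9 FPKM. At the other end RSAD2 averaged 0.102 and IFI44L 0.107 FPKM, and CMPK2 was listed at 0 in all 8 libraries. The exons of CMPK2 overlap those of RSAD2 on the opposite strand, and whether this bears on its count was not tested, so no level is read from that 0. The summed FPKM of the 50 effectors was 799 and 739 on the soft and 604 and 649 on the stiff matrix at 2 days, and 1017 and 918 on the soft and 658 and 893 on the stiff matrix at 4 days. Both stiff libraries lay under both soft libraries at each day, although IFITM3 alone makes up much of that sum.

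For cells cultured for 2 days, no effector passed an adjusted p of 0.05 by the quasi-likelihood test of edgeR, adjusted over all 14708 genes by the Benjamini-Hochberg method (0% of all genes passed), and DESeq2 called 2, IFI44 and APOL3 (0.17% of all genes). At an unadjusted p under 0.05, 14 of 48 effectors were lower on the stiff matrix, against 1.74% of all genes, and 0 were higher, against 1.04%. The 48 log2 fold changes had a median of -0.42 against 0.01 over all genes tested. In 33 effectors both stiff libraries lay below both soft ones (22.3% of all genes did so), and in ADAR, EIF2AK2 and TRIM14 both lay above (25.8%). Fitted without the later libraries, the same test called 22 effectors lower (2.41% of all genes), and without the first or the second stiff library of 4 days it called 5 (0.558% and 0.564%).

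For cells cultured for 4 days, 5 effectors passed the adjusted cutoff as downregulated on the stiff matrix in the same edgeR fit, against 0.211% of all genes, and 0 were upregulated, against 0.034%. The 5 include IFI44L, which reached the count minimum only in the soft libraries of 4 days. At an unadjusted p under 0.05, 27 of 48 were lower (4.34% of all genes) and 0 were higher (2.63%). The log2 fold change was at or below -1 in 16 of 48 (2.73% of all genes), with a median of -0.68 against 0.02 over all genes. Both stiff libraries lay below both soft ones in 34 effectors (13.9% of all genes), and BATF2 was the 1 effector in which both lay above (11.8%). IFI44L and RSAD2 are among the 16 and the 34, and IFI44L among the 27. Both genes reached the count minimum only in the soft libraries of 4 days, so they had to be lower on the stiff matrix. DESeq2 called 18 effectors lower (0.867% of all genes), and edgeR fitted to the 4-day libraries alone called 0. The number also turned on single libraries: it was 0 without any one of the 4 soft-matrix libraries, 3 without either stiff library of 2 days (0.116% of all genes), and, with 1 stiff library left at 4 days, 30 without the first (29 lower, against 14.9% of all genes, and 1 higher) and 27 without the second (all lower, against 1.85%).

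Averaged over both days, 6 effectors were downregulated, the 5 above and XAF1, against 0.367% of all genes, and 0 were upregulated, against 0.0816%. The 6 include IFI44L, whose call is a description only, since it entered the test through the soft libraries of 4 days. RSAD2 entered in the same way, and both genes are among the 45, the 28 and the 41 given below. At an unadjusted p under 0.05, 29 were lower (4.75% of all genes) and 0 higher (2.97%). The log2 fold change was below 0 in 45 of 48 (45.3% of all genes), with a median of -0.54, and in 28 effectors both stiff libraries lay below both soft ones at each day (6.09% of all genes; 4.83% lay above at each day, and no effector did). In 41 effectors the log2 fold change was below 0 at both days, and in none was it above 0 at both. No share over all genes was taken for these counts. Without single libraries the 6 became between 0 and 31: 0 without either soft library of 2 days or the first stiff library of 2 days, 3 without its second, 1 without either soft library of 4 days, and 31 or 29 without the first or the second stiff library of 4 days (9.27% and 3.7% of all genes).

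**Figure D2:**
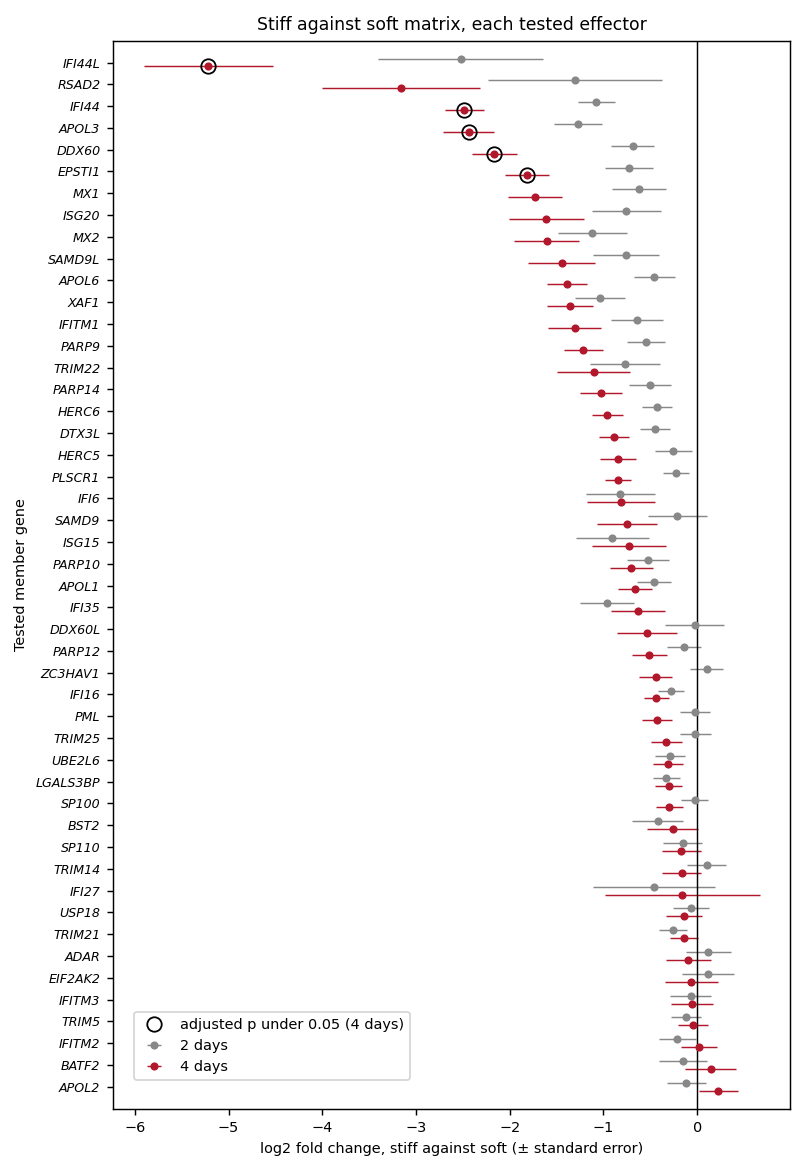
Log2 fold change of each of the 48 tested effectors (vertical axis) on the stiff against the soft matrix (horizontal axis, with standard errors) at 2 days (grey) and at 4 days (red), from edgeR. Rings mark the 5 effectors past an adjusted p of 0.05 at 4 days; 44 grey and 45 red points lie below 0.

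Of the effectors that act at entry or at the cell membrane, all 6 were tested and none passed at either day. Values by library are given in CPM (counts scaled by depth) after TMM scaling, the first replicate before the second. IFITM1, an interferon-induced transmembrane protein that restricts viral entry, had 7.03 and 5.64 CPM on the soft and 3.82 and 4.31 CPM on the stiff matrix at 2 days, and 13.8 and 10.1 CPM on the soft and 3.64 and 6.06 CPM on the stiff matrix at 4 days. Its stiff libraries lay below the soft ones at each day, and at 4 days the difference was -1.31 on the log2 scale (standard error 0.2804, adjusted p = 0.196 by edgeR). PLSCR1, a phospholipid scramblase, had 16.4 and 17.8 CPM on the soft and 14.02 and 15.2 CPM on the stiff matrix at 2 days, and 32.6 and 29.97 CPM on the soft and 18.1 and 16.7 CPM on the stiff matrix at 4 days. At 4 days its libraries did not overlap and its log2 fold change was -0.84 (adjusted p = 0.0919 by edgeR), past the cutoff with DESeq2. IFITM2 had 28.3 and 24.1 CPM on the soft and 22.2 and 23.1 CPM on the stiff matrix at 2 days, and 54.4 and 43.1 CPM on the soft and 41.7 and 57.2 CPM on the stiff matrix at 4 days. Its stiff libraries at 4 days spanned the soft ones, with a log2 fold change of 0.02 that turned to -0.11 without scaling factors. IFITM3, its close neighbour in sequence, overlapped between the matrices at both days, as did BST2 at 4 days. The IFITM genes lie within 1 stretch of chromosome 11 (GRCh37, 303655 to 329475), have closely similar sequences, and share exons with other annotated genes, so the split of reads among them is uncertain.

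In the ISG15 system, ISG15 is the modifier, UBE2L6 its conjugating enzyme, HERC5 its main ligase in human cells and USP18 the protease that removes it. None of the 6 members passed at either day, and 4 had both stiff libraries below both soft ones at 4 days (13.9% of all genes). HERC6, a relative of HERC5, had 14.1 and 12.8 CPM on the soft and 9.23 and 10.7 CPM on the stiff matrix at 2 days, and 20.5 and 19.7 CPM on the soft and 9.54 and 11.2 CPM on the stiff matrix at 4 days. Its log2 fold change at 4 days was -0.96 (standard error 0.162, adjusted p = 0.0935 by edgeR). HERC5 had 5.41 and 7.08 CPM on the soft and 4.83 and 5.65 CPM on the stiff matrix at 2 days, and 11.6 and 13.1 CPM on the soft and 6.88 and 6.92 CPM on the stiff matrix at 4 days. At 4 days both genes were lower in each stiff library than in each soft one. ISG15 had 67.2 and 58.7 CPM on the soft and 33.2 and 34.1 CPM on the stiff matrix at 2 days, and 58.98 and 41.5 CPM on the soft and 16.7 and 44.2 CPM on the stiff matrix at 4 days, so that its libraries were apart at 2 days and overlapped at 4 days. USP18 overlapped between the matrices at both days, with log2 fold changes of -0.06 and -0.14.

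Of the effectors on viral replication and RNA, 11 of 12 were tested and DDX60 was downregulated at 4 days, while 8 had both stiff libraries below both soft ones (13.9% of all genes). DDX60, a DExD/H-box helicase (chromosome 4 of GRCh37, 169137442 to 169240034), showed 6.01 and 6.75 CPM on the soft and 3.23 and 4.68 CPM on the stiff matrix at 2 days, and 10.6 and 12.9 CPM on the soft and 2.85 and 2.37 CPM on the stiff matrix at 4 days. The stiff libraries were lowest at 4 days, 4.48-fold below the soft ones (log2 fold change -2.16, standard error 0.244, adjusted p = 0.0195 by edgeR). At 2 days the log2 fold change was -0.69 (adjusted p = 1). Its neighbour and paralogue DDX60L, on the same strand, had log2 fold changes of -0.03 and -0.53 and overlapping libraries at both days.

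The MX genes lie next to each other on chromosome 21 (GRCh37, 42733926 to 42841998). MX1, a GTPase that blocks replication of RNA viruses, had 2.53 and 3.34 CPM on the soft and 1.51 and 2.301 CPM on the stiff matrix at 2 days, and 6.07 and 7.58 CPM on the soft and 1.82 and 2.31 CPM on the stiff matrix at 4 days. MX2, best known for its action on HIV-1, had 2.21 and 2.26 CPM on the soft and 1.05 and 1.004 CPM on the stiff matrix at 2 days, and 4.95 and 5.24 CPM on the soft and 2.31 and 0.981 CPM on the stiff matrix at 4 days. For both, each stiff library lay below each soft one on its day, with log2 fold changes at 4 days of -1.73 (adjusted p = 0.0919 by edgeR) and -1.61 (adjusted p = 0.196). Exons of MX1 overlap those of TMPRSS2 on the opposite strand. RSAD2, which makes a chain-terminating nucleotide, had 7 and 8 counts on the soft and 4 and 1 on the stiff matrix at 2 days, and 16 and 27 on the soft and 4 and 0 on the stiff matrix at 4 days. Its soft to stiff ratio at 4 days, from 43 against 4 counts, was 9.29 with a 95% interval of 3.38 to 35.6 that covers counting error only, and it did not pass the test. It entered the test only through the soft libraries of 4 days, and is among the replication and RNA effectors with no overlap at 4 days. The exonuclease ISG20 and the growth regulator SAMD9L were also lower in each stiff library at 4 days, with log2 fold changes of -1.61 and -1.44, while the RNA editor ADAR (-0.10) and the kinase EIF2AK2 (-0.06) overlapped.

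The IFI genes and small induced proteins held 3 of the 5 calls at 4 days, IFI44, EPSTI1 and, through the soft libraries alone, IFI44L, and 4 of the 6 calls over both days, with XAF1. Of 10 such genes 9 were tested. IFI44, an interferon-induced protein whose biochemical action is little known (chromosome 1 of GRCh37, 79115481 to 79129763), showed 9.21 and 12.4 CPM on the soft and 4.74 and 5.52 CPM on the stiff matrix at 2 days, and 22.4 and 19.99 CPM on the soft and 3.69 and 3.86 CPM on the stiff matrix at 4 days. The matrices did not overlap at either day, and the fold was 2.11 at 2 days (adjusted p = 0.548 by edgeR) and 5.61 at 4 days (log2 fold change -2.49, standard error 0.207, adjusted p = 0.0106). Leaving out single libraries moved its log2 fold change at 4 days only between -2.57 and -2.39, and the call was lost without any one of the 4 soft-matrix libraries.

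IFI44L, its paralogue next to it on chromosome 1 (79085587 to 79111830), had 6 and 9 counts on the soft and 1 and 1 on the stiff matrix at 2 days, and 43 and 52 on the soft and 0 and 2 on the stiff matrix at 4 days. The soft to stiff ratio was 41.1 at 4 days (95% interval 11.1 to 344, counting error only) and 6.36 at 2 days (1.48 to 57.3). The adjusted p at 4 days was 0.0359 by edgeR, and the fitted log2 fold change of -5.22 depends on the prior count. Like RSAD2, it reached 10 counts only in the soft libraries of 4 days, so that its call supports nothing on stiffness or on time.

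EPSTI1, an interferon-induced gene first described in epithelial and stromal cells in contact (chromosome 13, 43460524 to 43566407), showed 1.897 and 2.62 CPM on the soft and 1.34 and 1.38 CPM on the stiff matrix at 2 days, and 8.22 and 8.94 CPM on the soft and 2.16 and 2.71 CPM on the stiff matrix at 4 days. It was 3.53-fold lower on the stiff matrix at 4 days (log2 fold change -1.82, standard error 0.237, adjusted p = 0.0359 by edgeR) and 1.66-fold at 2 days (adjusted p = 1). XAF1, which binds the apoptosis inhibitor XIAP, had 2.28 and 2.44 CPM on the soft and 0.923 and 1.38 CPM on the stiff matrix at 2 days, and 5.603 and 6.81 CPM on the soft and 2.41 and 2.42 CPM on the stiff matrix at 4 days. Its log2 fold changes were -1.03 and -1.36, and it passed only in the mean of both days (-1.20, standard error 0.182, adjusted p = 0.0446 by edgeR). Exons of XAF1 overlap those of PRAL on the opposite strand.

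IFI16, a nuclear DNA-binding protein, had 44.7 and 52.9 CPM on the soft and 39.8 and 40.5 CPM on the stiff matrix at 2 days, and 79.8 and 83.6 CPM on the soft and 62.7 and 58.1 CPM on the stiff matrix at 4 days. Its log2 fold change was -0.28 at 2 days and -0.44 at 4 days (adjusted p = 0.459 by edgeR), with no overlap of the matrices. IFI35 had 16.1 and 14.8 CPM on the soft and 6.67 and 9.16 CPM on the stiff matrix at 2 days, and 21.5 and 17.6 CPM on the soft and 8.95 and 16.3 CPM on the stiff matrix at 4 days. Its difference was larger at 2 days (-0.96) than at 4 days (-0.63), where its second stiff library came close to the soft ones. BATF2, a basic leucine zipper factor, had a log2 fold change of 0.14 at 4 days, and IFI27, at 2 to 16 counts, one of -0.16. RTP4 did not reach the minimum, with 8 and 9 counts on the soft and 0 and 1 on the stiff matrix at 2 days, and 18 and 8 on the soft and 0 and 3 on the stiff matrix at 4 days. Its soft to stiff ratios were 14.4 (95% interval 2.26 to 602) and 7.49 (2.30 to 38.7), counting error only.

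**Figure D3:**
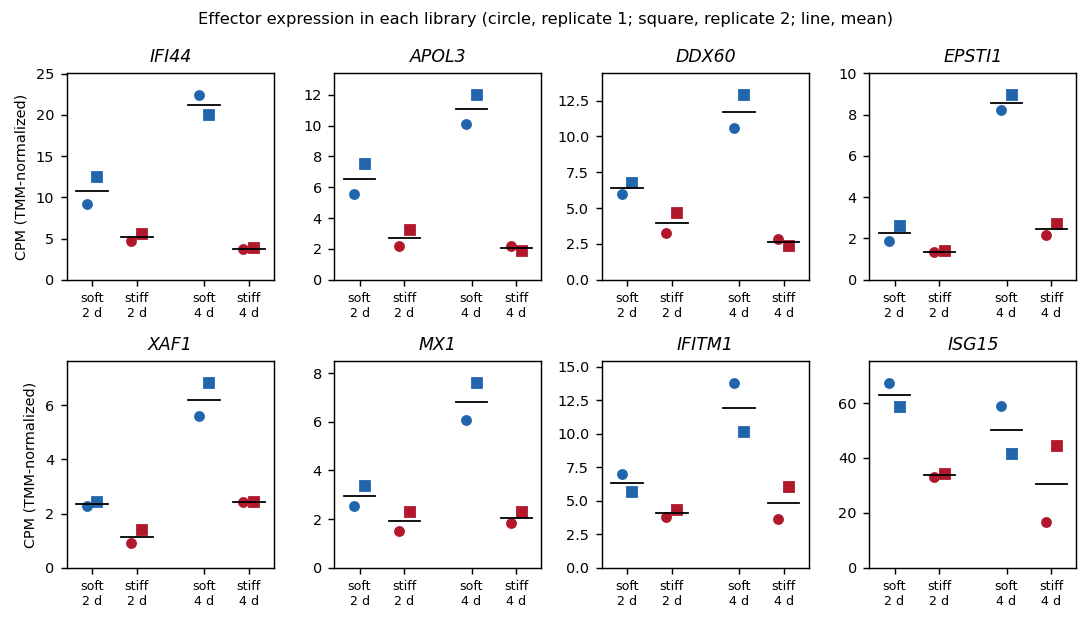
TMM-normalized CPM (vertical axis, from 0) of 8 effectors in each library, by matrix and day (horizontal axis). Circles are replicate 1, squares replicate 2 and lines the mean of both; IFI44, APOL3, DDX60 and EPSTI1 are apart between matrices at each day, and ISG15 overlaps at 4 days.

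The PARP genes and DTX3L, an E3 ligase that works as a pair with PARP9, had log2 fold changes below 0 at both days in all 5, none past the test. At 4 days all 5 had both stiff libraries below both soft ones (13.9% of all genes) and an unadjusted p under 0.05 (4.34% of all genes were lower by it). PARP9, an ADP-ribosyltransferase family member, had 12.3 and 15.1 CPM on the soft and 9.697 and 9.08 CPM on the stiff matrix at 2 days, and 15.8 and 19.5 CPM on the soft and 8.65 and 6.52 CPM on the stiff matrix at 4 days. DTX3L had 12.2 and 10.9 CPM on the soft and 7.77 and 9.16 CPM on the stiff matrix at 2 days, and 27.7 and 31.6 CPM on the soft and 15.6 and 16.4 CPM on the stiff matrix at 4 days. Log2 fold changes at 4 days were -1.22 for PARP9 (adjusted p = 0.0935 by edgeR) and -0.89 for DTX3L (adjusted p = 0.107), and both passed with DESeq2, at adjusted p = 0.000225 and 0.000811. These genes start from a shared stretch of chromosome 3 in opposite directions and their exons overlap, so without the strand setting of the counting, which is not given in the sources used here, their reads cannot be told apart. PARP14 had log2 fold changes of -0.50 and -1.02, PARP10 of -0.52 and -0.70, and PARP12 of -0.14 and -0.51.

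Of the 7 TRIM genes and nuclear body proteins, all tested, 0 passed at either day, and the median log2 fold change was -0.11 at 2 days and -0.17 at 4 days. PML, the scaffold of nuclear bodies, had 47.996 and 40.02 CPM on the soft and 41.6 and 44.9 CPM on the stiff matrix at 2 days, and 36.8 and 37.5 CPM on the soft and 24.7 and 30.4 CPM on the stiff matrix at 4 days. Its matrices overlapped at 2 days and did not at 4 days, where the log2 fold change reached -0.43 (adjusted p = 0.59 by edgeR). TRIM22 had the largest difference of the group, -0.77 and -1.10 on the log2 scale, and its stiff libraries at 4 days were far apart, at 2.999 and 1.096 CPM. The retroviral restriction factor TRIM5 had -0.04 and the antibody receptor TRIM21 -0.14 at 4 days.

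Of the apolipoprotein L genes, which lie on chromosome 22 and are best known for the trypanosome lytic factor APOL1, all 4 were tested and APOL3 was downregulated at 4 days. APOL3, at 36536377 to 36562225 of that chromosome in GRCh37, showed 5.55 and 7.51 CPM on the soft and 2.18 and 3.22 CPM on the stiff matrix at 2 days, and 10.1 and 11.96 CPM on the soft and 2.21 and 1.85 CPM on the stiff matrix at 4 days. It was 2.41-fold lower on the stiff matrix at 2 days (adjusted p = 0.661 by edgeR) and 5.42-fold at 4 days (log2 fold change -2.44, standard error 0.272, adjusted p = 0.0193). APOL6 had 10.9 and 13.7 CPM on the soft and 7.72 and 10.2 CPM on the stiff matrix at 2 days, and 26.1 and 33.9 CPM on the soft and 12.05 and 10.8 CPM on the stiff matrix at 4 days. It did not overlap between matrices at either day, and its log2 fold change at 4 days was -1.39 (standard error 0.215, adjusted p = 0.0664 by edgeR). APOL1 had 35.2 and 36.6 CPM on the soft and 24.5 and 27.7 CPM on the stiff matrix at 2 days, and 60.9 and 63.7 CPM on the soft and 32.3 and 46.3 CPM on the stiff matrix at 4 days. Its log2 fold changes were -0.46 and -0.66. APOL2, next to APOL1, had -0.11 and 0.23 with overlapping libraries at 4 days. The 4-day value was the most positive of the 48, and ran from -0.12 to 0.52 without single libraries.

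Whether the effect of stiffness differed between the days was tested as an interaction. None of the 48 passed (0% of all genes), with the smallest adjusted p at 0.999 by edgeR. At an unadjusted p under 0.05, 9 effectors had a more negative effect at 4 days, against 1.2% of all genes, and 0 a more positive one, against 0.802%. The interaction was negative in 36 of 48, against 49.4% of all genes, with a median of -0.33. By role, the median was lowest in the APOL genes (-0.57) and the replication and RNA effectors (-0.54, negative in 11 of 11), and 0.02 in the entry and membrane group. RSAD2, among the 11, and IFI44L are both among the 36. They reached the count minimum only in the soft libraries of 4 days, which favours a negative value, so they lend these counts no support. Among single genes the interaction was -1.41 in IFI44 and -1.47 in DDX60. Without the first stiff library of 4 days, 15 effectors passed with a more negative and 3 with a more positive effect at 4 days, against 9.99% and 11.4% of all genes.

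On the soft matrix, 16 of 48 effectors rose from 2 to 4 days at an adjusted p under 0.05 by edgeR, against 14% of all genes, and 0 fell, against 13.1%. The log2 fold change was below 0 in 11 of 48 (49.1% of all genes), with a median of 0.37 against 0.02 over all genes. IFI44L is one of the 16, at 8.03-fold, and reached the count minimum only in the soft libraries of 4 days. The other rises were 3.79-fold in EPSTI1, 2.62-fold in XAF1, 2.56-fold in DTX3L and 2.44-fold in APOL6. MX1, MX2, HERC5, IFI44, IFITM1, IFITM2, DDX60, PLSCR1, APOL1, IFI16 and HERC6 rose between 1.502-fold (HERC6) and 2.32-fold (MX1). No TRIM or nuclear body gene was among them. The count of rises was 2 without the first and 8 without the second soft library of 2 days (0.836% and 3.46% of all genes), and 5 or 7 without the first or second soft library of 4 days (3.52% and 4.02%). It was 13 without either stiff library of 2 days (8.4% and 8.42%), and 25 or 24 without the first or second stiff library of 4 days (26.8% and 26.1%).

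On the stiff matrix, 6 effectors rose, against 13.9% of all genes, and PML fell, against 13.5%. IFITM2 rose 2.18-fold, XAF1 2.09-fold, DTX3L 1.89-fold, EPSTI1 1.78-fold, IFI16 1.51-fold and APOL1 1.505-fold, and PML fell by 0.65 on the log2 scale (adjusted p = 0.0216 by edgeR). All 6 also rose on the soft matrix. The median log2 fold change of the 48 was 0.02, against 0.03 over all genes. With offsets for gene length, added after seeing the data, PML had -0.44 and did not pass (adjusted p = 0.133 by edgeR). No effector was called without either stiff library of 2 days, and fewer were called without either soft library of 2 days. Fewer of all genes were called in each of these fits as well, so the loss is not particular to the effectors. Without the first stiff library of 4 days there were 12 rises and 12 falls, or 25% of the 48 each, against 26.9% and 26.2% of all genes, and without the second 6 and 4, against 21.7% and 23.1%.

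IFI44 and DDX60 had opposite signs over time on the 2 matrices, and the share of all genes with such a pattern was not taken. Soft-matrix libraries rose in both genes (log2 fold changes 0.97 and 0.88), while on the stiff matrix both libraries at 4 days lay below both at 2 days, with log2 fold changes of -0.44 and -0.60 that did not pass (adjusted p = 0.152 and 0.113 by edgeR). The time and stiffness comparisons share libraries, so their values for a gene are not independent.

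**Figure D4:**
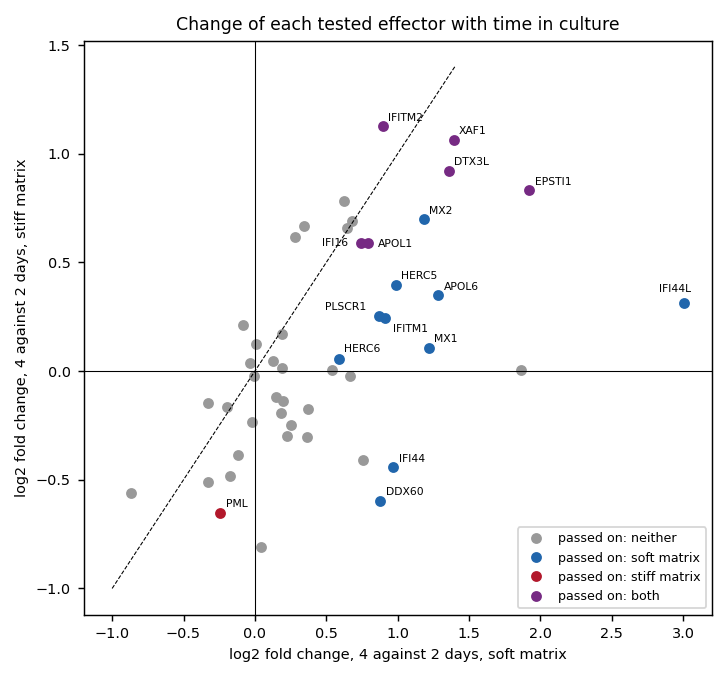
Log2 fold change from 2 to 4 days on the soft matrix (horizontal axis) and on the stiff matrix (vertical axis) for the 48 tested effectors, by edgeR. Colours give the matrix on which the adjusted p was under 0.05, named points are those that passed on either, and the dashed line marks equal change; IFITM2 lies above it and IFI44 and DDX60 below the horizontal zero line.

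Replicates of the stiff matrix at 4 days differed by gene length, and the effectors' lengths, as implied by the FPKM, run from 666 to 10139 bases. Over all genes, the second library was higher than the first by a median of 0.76 on the log2 scale in genes under 1500 bases and lower by 0.52 in genes over 6000 bases. In the 48 effectors the Spearman correlation of this difference with length was -0.59, as a description over genes of 1 pair of libraries, and it was 0.75 for the soft matrix at 4 days. The first stiff library of 4 days lay below both soft ones in 40 of 48 effectors, 16 of 19 up to 3 kb and 24 of 29 longer (37.7% of all genes). The second also did so in 40, but in 12 of 19 up to 3 kb and 28 of 29 longer (43.1% of all genes). With offsets for gene length, chosen after seeing the data, 16 effectors passed at 4 days (0.626% of all genes were lower), and the log2 fold change was -2.58 for IFI44, -2.41 for APOL3, -2.12 for DDX60 and -1.82 for EPSTI1.

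**Figure D5:**
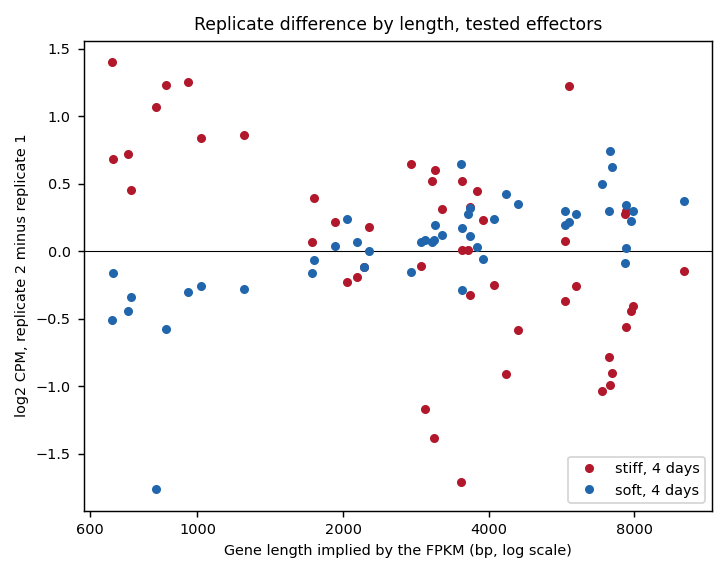
Difference in log2 CPM between replicate 2 and replicate 1 at 4 days (vertical axis) against the gene length implied by the FPKM (horizontal axis, log scale) for the 48 tested effectors. On the stiff matrix (red) short genes lie mostly above 0 and long ones mostly below, and on the soft matrix (blue) the order is the other way and smaller.

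Genes of the pathway upstream of the effectors were counted by lists. Of 9 interferon genes, IFNA2, IFNB1, IFNG and IFNL1 to IFNL3 were at 0 in every library, and IFNE alone was tested, at 21 to 41 counts. None of the 9 receptor and JAK kinase genes passed in any of the 3 stiffness comparisons. Of 7 factors and negative regulators, IRF1 was downregulated on the stiff matrix at 4 days (log2 fold change -1.11, adjusted p = 0.0359 by edgeR) and over both days (-0.89), and IRF9 over both days (-0.84, adjusted p = 0.0319).

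Markers of the cells were checked in the same libraries. The stellate cell genes COL1A1 and VIM reached 28992 and 110441 counts, and COL1A2 had 37 to 90. Of this list of 8 genes, all tested, COL3A1 (log2 fold changes -1.06 and -1.58 at 2 and 4 days), PDGFRB (-0.47 and -0.66), COL1A2 (-0.21 and -0.70), ACTA2 (-0.21 and -0.34), COL1A1 (-0.12 and -0.22) and TIMP1 (-0.08 and -0.12) had values below 0 alongside the effectors, and VIM (0.40 and 0.25) and LOX (0.42 and 0.62) above 0. Of 8 leukocyte markers CD3E, MS4A1 and TYROBP were at 0 in all libraries and PTPRC had 12 to 64 counts, and the summed FPKM of the list, most of it CD68, was 48.3 to 56.6 in the soft and 57.3 to 66.7 in the stiff libraries. CD68 had log2 fold changes of 0.27 and 0.21, while CD14, at 48 to 205 counts, had -0.76 and -0.33, and ITGAM, at 0 to 10 counts, -0.23 and -2.77. The hepatocyte genes ALB and TTR had at most 8 and 0 counts, while SERPINA1, which other cells also express, had 104 to 220 counts and log2 fold changes of -0.56 and -0.43. No marker on any list, TIE1 (801 to 2227 counts) and KRT7 (191 to 465) included, passed in a stiffness comparison. The part of other cells in the effector values was not tested beyond these counts.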

How the data were processed

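RNA-seq libraries of LX-2 cells were grouped by matrix and day from the sample titles. The authors trimmed reads with Trim Galore, mapped them to hg19 with STAR (version 2.7.1a in the submitters' processing notes) and deposited raw counts per gene from HTSeq; the strand setting and annotation are not given in the sources used here. The labels name a NovaSeq 6000 and an NEBNext Ultra kit, the paper another sequencer. The deposited FPKM are the same counts over gene length, scaled by size factors of the median-of-ratios kind: the implied length was whole, within 0.02, in 100% of 11046 genes with at least 50 counts in every library.

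The members, gene lists, roles and motifs were chosen with earlier results of these data known. Genes with at least 10 counts in 2 or more libraries were tested with edgeR 4.0.16 in R 4.3.3: TMM scaling (factors 0.869 to 1.08), 1 quasi-likelihood model of 4 conditions over 8 libraries, 6 contrasts, and Benjamini-Hochberg adjustment over all 14708 genes, with calls at 0.05. CPM are TMM-normalized (for log2, with 2 prior counts), and each standard error is the log2 fold change over the square root of F. Ratios of summed counts have exact 95% binomial intervals, which cover counting error only. Named genes were members past the cutoff in any contrast and the 10 with the smallest p in each stiffness contrast at 2 days, 4 days and their mean; RSAD2, ISG15, IFITM3, RTP4, BATF2, IFI27, TRIM22 and other members were added to account for each role, after their values were seen.

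Alternatives were DESeq2 1.42.0, RLE or no scaling, other filters, separate fits by day or matrix, a replicate block, limma 3.58.1 on log2(FPKM + 1) and log2(FPKM + 0.1), voom with sample weights and leaving out each library, and, added after seeing the data, length offsets, a block crossed at 4 days and unadjusted p-values. On simulated counts with 198 genes lowered at 4 days and none at 2 days, the edgeR test recovered 43 at a log2 change of 1 and 156 at 2, with 1 and 14 other calls; with 199 genes lowered at 2 days, it recovered 62 and 165, with 6 and 17 other calls. Gene positions are from GENCODE v44lift37 on GRCh37, by symbol, and promoters from RefSeq's table on GRCh38.p14. All table columns mapped to a sample.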

Additional observations from a re-analysis of the deposited data

Results flagged for a closer look

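In DDX60, IFI44 and PARP9, every soft-matrix library at 4 days lay above those at 2 days, and every stiff-matrix library at 4 days lay below those at 2 days. The share of all genes with this pattern was not taken. The rise on the soft matrix passed the adjusted cutoff in DDX60 and IFI44 but not in PARP9, and the fall on the stiff matrix passed in none of them. The difference between these changes was -1.47 on the log2 scale for DDX60 (standard error 0.335, unadjusted p = 0.00234), -1.41 for IFI44 (standard error 0.283, unadjusted p = 0.0011) and -0.67 for PARP9 (standard error 0.287, unadjusted p = 0.0479) in edgeR's fit across all genes, and none passed after adjustment (adjusted p = 0.999 for each). The 2 libraries of a condition allow no test for a divergent single library.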

How the results depend on the processing

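Libraries that share a replicate number on soft and stiff matrix had deviations correlated at -0.03 (2 days) and -0.48 (4 days). These values do not decide whether such libraries were prepared together. With the number as a replicate block, 3 effectors passed as lower at 4 days (0.0884% of all genes) and 3 over both days (0.163%). Over time, 13 rose on the soft matrix (8.91% of all genes). On the stiff matrix 4 of the 48 rose, a share near that of all genes (8.4%). With the pairing crossed at 4 days, 8 passed as lower at 4 days (0.32%) and 11 over both days (0.49%). At 2 days, 14 passed at an unadjusted p (1.74% of all genes were lower by it) and 2 with DESeq2 (0.17%). The separate fit gave 22 (2.41%) and voom weights 8 (0.843%), and all of these were lower. The median log2 fold change was -0.49 without scaling, -0.26 with limma on log2(FPKM + 1) and -0.37 on log2(FPKM + 0.1). It was -0.24 on log2(FPKM + 1) with no filter and -0.38 with length offsets. At 4 days, 27 passed at an unadjusted p (4.34% of all genes were lower by it) and 18 with DESeq2 (0.867%). With limma, 2 passed on log2(FPKM + 0.1) (0.218%) and 2 with no filter (0.0907%). Length offsets gave 16 (0.626%), and all of these were lower. The separate fit and voom weights gave 0 (0% and 0.0068%). Medians were -0.82 without scaling, -0.59 with limma on log2(FPKM + 1) and -0.49 with no filter. Over both days, 29 passed unadjusted (4.75% of all genes were lower by it) and 19 with DESeq2 (1.06%). Limma on log2(FPKM + 0.1) gave 2 (0.291%), voom weights 1 (0.156%) and length offsets 20 (1.09%), and all of these were lower. Medians were -0.63 without scaling, -0.48 with limma on log2(FPKM + 1) and -0.37 with no filter. For the interaction, 9 passed unadjusted as more negative (1.2% of all genes). With limma on log2(FPKM + 1) and no filter, 1 passed as more negative (0.185%), and the median was -0.26. Over time on the soft matrix, 7 passed with at least a 2-fold change, with no share over all genes taken. The separate fit gave 25, of which 24 rose and 1 fell (24.4% and 25.4% of all genes). Limma with no filter gave 10, all of them rises (5.29% of all genes). Medians were 0.29 without scaling, 0.30 with limma on log2(FPKM + 1) and 0.26 with no filter. On the stiff matrix, 2 passed with a 2-fold change and 12 unadjusted, with no share over all genes taken. Without scaling 3 passed (8.81% of all genes rose and 15.8% fell), and 0 in the separate fit (0.619% and 1.11%). With limma 4 passed on log2(FPKM + 1) (14% and 15.4%) and 4 on log2(FPKM + 0.1) (13.9% and 14.9%). With no filter 3 passed (5.07% and 5.95%). Voom weights gave 2 (7.39% and 6.55%) and length offsets 13 (22.7% and 18.6%). Medians were -0.091 without scaling, -0.030 on log2(FPKM + 0.1) and -0.055 with voom weights. Without scaling factors the median of all genes was -0.10 at 4 days. Leaving out single libraries gave 0 to 5 calls (medians -0.46 to -0.27) at 2 days, 0 to 30 (-0.77 to -0.54) at 4 days, 0 to 31 (-0.61 to -0.47) over both days, 0 to 18 (-0.41 to -0.28) for the interaction, 2 to 26 (0.26 to 0.49) over time on the soft and 0 to 24 (-0.034 to 0.064) on the stiff matrix. A lone library left in a condition was assumed to vary like the others. Among the effectors named by rule, the sign turned for PML at 2 days (0.11 without the first soft and 0.03 without the first stiff library of 2 days, within a range of -0.15 to 0.11 without single libraries), for IFITM2 at 4 days (-0.11 without scaling, -0.16 with length offsets, -0.14 without the second soft and -0.22 without the second stiff library, within a range of -0.22 to 0.24) and for IFITM2 over both days (0.0097 without the first stiff library of 4 days). Counted over all 48, the sign turned under at least 1 alternative in 7 effectors at 2 days, 10 at 4 days and 8 over both days, none of them called. They were IFITM3, USP18, TRIM25, ZC3HAV1, DDX60L, PML and SP100 at 2 days and IFITM2, IFITM3, BST2, EIF2AK2, ADAR, IFI27, TRIM5, TRIM14, SP110 and APOL2 at 4 days, with log2 fold changes of at most 0.10 and 0.26 in size. The sign also turned in 19 of the 48 for the interaction. It did so in 9 over time on the soft and in 23 over time on the stiff matrix, and none of these was called. The largest of their values were 0.49, 0.26 and 0.70 in size, in that order. The cause was not tested. The mean of both days and the interaction use libraries of both days, so they have no separate fit. RSAD2, IFI44L, RTP4 and IFI27 were limited by counts under 60 per library.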
